A study of Mus musculus with 21 samples.

Results

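The expression of 10 genes of liver X receptor (LXR) signalling, sterol export and plant sterol transport was followed in the testes of 21 mice at postnatal day 10. The genes were taken from the deposited table by gene name, and each of the 10 names matched 1 of its 32643 genes. They are the LXR genes Nr1h2 and Nr1h3, the cholesterol exporters Abca1 and Abcg1, the plant sterol exporters Abcg5 and Abcg8, the lipoprotein gene Apoe, the lipid regulator Srebf1, the HDL receptor Scarb1 and the sterol importer Npc1l1. All 10 had enough reads to be tested, as did 20254 genes in all.

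RNA-seq had been run on whole testes of knockouts of FXRα (KO, labelled FXRα-/-), which lack the bile acid receptor gene Nr1h4, and of wild types (WT). In each genotype animals had been given the plant sterol stigmasterol, bisphenol A (BPA, a weakly estrogenic building block of plastics) or vehicle. There were 3 KO stigmasterol, 3 KO BPA, 3 KO vehicle, 4 WT stigmasterol, 4 WT BPA and 4 WT vehicle animals, 1 library each. All were labelled as 50% 129sv and 50% C57Bl6, and neither doses nor litters nor the deleted part of Nr1h4 are given in the labels.

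The LXRs are nuclear receptors that bind oxidised cholesterol derivatives (oxysterols) and sterol intermediates, pair with RXR and switch on genes that move cholesterol out of cells. Some plant sterols with a double bond in the side chain, stigmasterol among them, have been reported to activate LXR in cell assays, and ABCG5 and ABCG8 form the pump that returns plant sterols to the gut lumen and bile. In the testis, Sertoli cells take up lipid from dying germ cells and Leydig cells use cholesterol from HDL to make androgens.

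The promoters of Abca1 and Srebf1, both classical LXR targets, are shown because each holds an element like the one LXR and RXR bind, a direct repeat of AGGTCA with 4 open letters between the repeats (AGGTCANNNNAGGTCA, called DR4). An exact DR4, sought on both strands, was in 5 of 32851 mouse promoters (0.0152%) and in 0 of 14 promoters of the 8 member genes that had an entry. With up to 3 of its 12 fixed letters changed it was in 21.9% of all promoters and in 2 of the 14 member promoters. Both are printed 5′ to 3′ on the gene's strand, 250 bases before to 50 after the start, from RefSeq on GRCm38.p6 (the mm10 build), with that site in capitals. The Abca1 promoter lies at chr4:53159846-53160145 on the minus strand and its site starts 67 bases before the transcript start. The Srebf1 promoter lies at chr11:60210422-60210721 on the minus strand, at the innermost of 3 annotated Srebf1 starts, and its site starts 182 bases before that start.
Abca1: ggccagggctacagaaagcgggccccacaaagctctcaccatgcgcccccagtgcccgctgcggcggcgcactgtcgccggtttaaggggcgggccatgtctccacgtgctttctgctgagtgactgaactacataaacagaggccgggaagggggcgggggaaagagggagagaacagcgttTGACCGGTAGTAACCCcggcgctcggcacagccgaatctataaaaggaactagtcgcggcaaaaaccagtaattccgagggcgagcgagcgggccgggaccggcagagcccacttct
Srebf1: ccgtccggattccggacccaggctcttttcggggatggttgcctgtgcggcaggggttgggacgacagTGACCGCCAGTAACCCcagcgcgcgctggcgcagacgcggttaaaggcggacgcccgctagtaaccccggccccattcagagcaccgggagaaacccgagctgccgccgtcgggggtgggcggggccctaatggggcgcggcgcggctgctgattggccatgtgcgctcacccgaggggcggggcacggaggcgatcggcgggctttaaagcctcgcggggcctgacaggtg

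Read on the opposite strand, the sites are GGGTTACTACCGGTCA in Abca1 and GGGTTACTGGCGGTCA in Srebf1. They share the form GGGTTACTNNCGGTCA, which was written down from these sites and was in 3 of 32851 promoters (0.00913%), the 2 shown among them. A match of letters is a description and no measure of binding.

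Abcg5 and Abcg8 lie on opposite strands of chromosome 17, and the stretch between a start of each is shown because both half-transporters are read outward from it. These RefSeq starts are at 84683011 (Abcg5, minus strand) and 84683121 (Abcg8, plus strand), with 109 bases between them. Another annotated Abcg8 start, at 84676302, lies inside Abcg5, so that the genes overlap. The region chr17:84682871-84683170 is printed on the plus strand, with the bases between the starts in capitals.
Abcg5 and Abcg8: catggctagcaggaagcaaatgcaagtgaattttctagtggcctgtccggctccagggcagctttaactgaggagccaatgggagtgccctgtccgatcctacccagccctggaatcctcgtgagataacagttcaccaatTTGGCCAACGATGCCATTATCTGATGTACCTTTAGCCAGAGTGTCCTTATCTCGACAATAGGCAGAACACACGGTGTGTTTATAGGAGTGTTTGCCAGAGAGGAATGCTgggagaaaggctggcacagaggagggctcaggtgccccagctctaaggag

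The libraries held 35459523 to 61498855 counted reads, and 3 counts were worth 0.0488 to 0.0846 CPM, the number of reads of a gene scaled to 1000000 reads of the library. Markers of Sertoli cells (9 genes), Leydig cells (7 genes) and germ cells (9 genes) each had a read in every library. Nr1h4 itself was at 0.172 to 0.492 CPM in KO testes and 0.241 to 0.868 CPM in WT testes, and the overlap means that its counts are no check of the labels. Cdh16, an epididymal and kidney cadherin, reached 10 CPM in 6 of 9 KO and 3 of 12 WT libraries. Alb, the liver's main plasma protein, reached 10 CPM in KO BPA animal T25 and in WT BPA animals T75 and T61, where it was 577.9 CPM in T61. Results that lean on such libraries are given with and without them.

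The members spanned a wide range of levels, and the order depends on the transcript length used. Per kilobase of the longest annotated transcript, median levels over the 21 libraries were 90.2 CPM for Apoe, 76.5 for Scarb1, 58.7 for Nr1h2, 32.0 for Srebf1 and 29.6 for Abca1. On the same scale Abcg1 stood at 4.60, Nr1h3 at 1.54, Npc1l1 at 0.255, Abcg5 at 0.0862 and Abcg8 at 0.0312 CPM per kilobase. LXRβ was the abundant receptor gene, and the plant sterol exporters came last. Not divided by length, their medians were 0.203 CPM (Abcg5) and 0.114 CPM (Abcg8), close to but above the 3-count floor of 0.0488 to 0.0846 CPM. In the authors' deposited normalized counts per kilobase, Scarb1 (12510), Srebf1 (7898) and Apoe (6752) came first. The authors' lengths for Scarb1 and Srebf1 were 0.818 and 0.753 kb, against 3.09 and 4.30 kb for their longest transcripts, and places 5 to 10 were the same on both scales. When the 6 groups were ranked by mean for each gene, 0 of the 50 pairs of neighbouring groups had ranges that did not overlap. No share over all genes was computed for such neighbours, so this count cannot be read as a trait of the members.

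**Figure D1:**
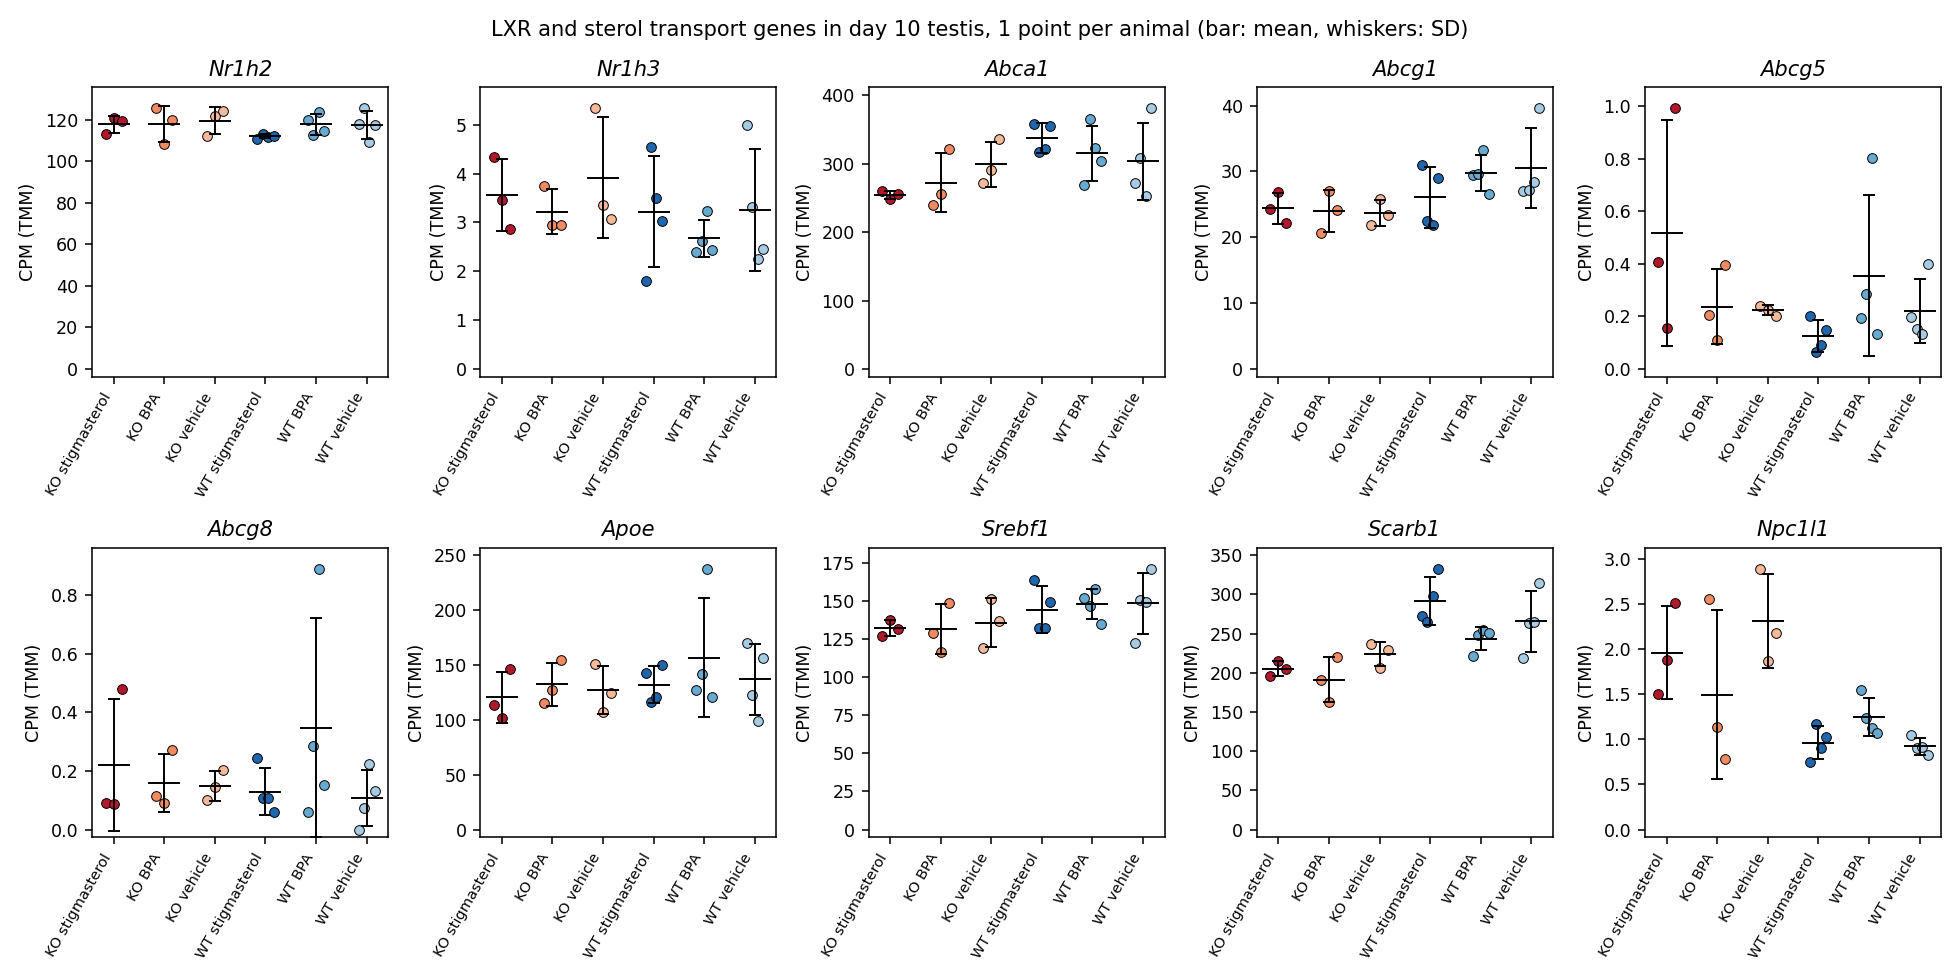
Level of each of the 10 genes (CPM after TMM scaling, linear axes) in the 6 groups, with 1 point per animal, a bar for the mean and whiskers for the SD (those reaching under 0 run off the axis). Scarb1 lies at 163 to 237 CPM in KO animals and 219 to 333 CPM in WT animals, and single animals stand out for Abcg5 and Abcg8.

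Stigmasterol was compared with vehicle to ask whether a plant sterol moved LXR targets, and in neither genotype did any of the 10 genes pass the threshold. In edgeR's quasi-likelihood test with Benjamini-Hochberg adjustment over all 20254 genes, 0 members were called at an adjusted p under 0.05 in KO, in WT or averaged over both genotypes. Over all genes the share called was 0% in KO, 0.00494% in WT, 0% averaged and 0.00987% for the difference between the genotypes, where members called were also 0 (Abca1 and Abcg5 had an unadjusted p under 0.05, as did 9.16% of all genes). At an unadjusted p under 0.05, 0 of the 10 members passed in KO, in WT or averaged, where 3.85%, 8.26% and 2.11% of all genes did, so that 0 of 10 is near the background. DESeq2 and limma-voom called 0 members in each of the 4 comparisons, although DESeq2 called more genes in WT than edgeR did, as counted in the closing sections. Leaving out any single library or the libraries with epididymal or liver transcripts gave 0 called members as well.

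Abca1 (ENSMUSG00000015243, chromosome 4, 53030787 to 53159895, mm10), the exporter that loads cholesterol onto apolipoprotein A-I, is among the most responsive LXR targets known. It was at 259.2, 248.2 and 254.8 CPM in KO stigmasterol animals T10, T15 and T93, against 271.6 CPM in KO vehicle animal T1, 290.5 in T90 and 335.6 in T110. It was at 357.3, 316.6, 320.6 and 354.8 CPM in WT animals given stigmasterol (T78, T98, T118, T119), against 271.4, 307.4, 252.2 and 380.9 CPM in those given vehicle (T66, T71, T79, T81). Further values are given in this order of animals within each group. The 3 KO stigmasterol animals all lay below the 3 KO vehicle animals, a separation that 9.59% of all genes showed in that comparison, and the WT groups overlapped. The log2 fold change of stigmasterol over vehicle was -0.24 ± 0.14 in KO (SE, edgeR adjusted p = 1.0) and 0.16 ± 0.12 in WT (adjusted p = 0.784). The difference between these effects was -0.39 ± 0.18 (unadjusted p = 0.0451, adjusted p = 0.542), and so was not called. Averaged over genotypes the fold was 0.972, with a 95% interval of 0.852 to 1.11.

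Neither Abcg1, which passes cholesterol to HDL, nor Srebf1, whose shorter form carries LXR signals to fatty acid synthesis, was called under stigmasterol. Abcg1 (ENSMUSG00000024030, chromosome 17, 31057698 to 31115777) was at 24.3, 26.8 and 22.1 CPM in KO stigmasterol animals and 21.9, 25.8 and 23.3 CPM in KO vehicle animals. It was at 31.0, 22.4, 21.9 and 29.0 CPM in WT stigmasterol animals and 27.0, 27.1, 28.5 and 39.6 CPM in WT vehicle animals, where T81 stood alone at the top. Both pairs of groups overlapped, and the averaged fold of stigmasterol over vehicle was 0.938 (95% interval 0.807 to 1.09). Srebf1 (ENSMUSG00000020538, chromosome 11, 60199089 to 60222581) was at 127, 137.5 and 131.5 CPM in KO stigmasterol animals and 119.03, 151.1 and 136.5 CPM in KO vehicle animals. It was at 163.6, 132.4, 131.9 and 148.9 CPM in WT stigmasterol animals and 122.5, 150.2, 149.4 and 171.0 CPM in WT vehicle animals. These groups overlapped too, and the averaged fold was 0.973 (0.870 to 1.09). Gene counts do not separate the longer and shorter Srebf1 forms, and Srebf1 shares 109 exon bases with Rai1 on the other strand, whose reads this unstranded kit cannot tell apart.

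Apoe (ENSMUSG00000002985, chromosome 7, 19696109 to 19699166), which carries cholesterol out of macrophages and glia, was at 113.6, 101.4 and 146.1 CPM in KO stigmasterol animals and 150.4, 106.5 and 124.4 CPM in KO vehicle animals. It was at 142.2, 115.6, 120.5 and 149.6 CPM in WT stigmasterol animals and 169.6, 122.8, 98.5 and 156.4 CPM in WT vehicle animals. All these ranges overlapped, and the averaged fold was 0.956 (0.763 to 1.20). The receptors themselves were likewise not called. Nr1h2 (LXRβ, the widely expressed form; ENSMUSG00000060601, chromosome 7, 44549616 to 44553951) had an averaged fold of 0.913 to 1.03 as its 95% interval, the narrowest of the 10. Nr1h3 (LXRα, the form of liver, fat and macrophages; ENSMUSG00000002108, chromosome 2, 91184061 to 91202834) had an interval of 0.700 to 1.28. Scarb1 and Npc1l1 had intervals of 0.895 to 1.13 and 0.691 to 1.28. The intervals of Abcg5 (0.582 to 2.34) and Abcg8 (0.552 to 3.45) rest on few reads and hold changes of more than 2-fold.

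**Figure D2:**
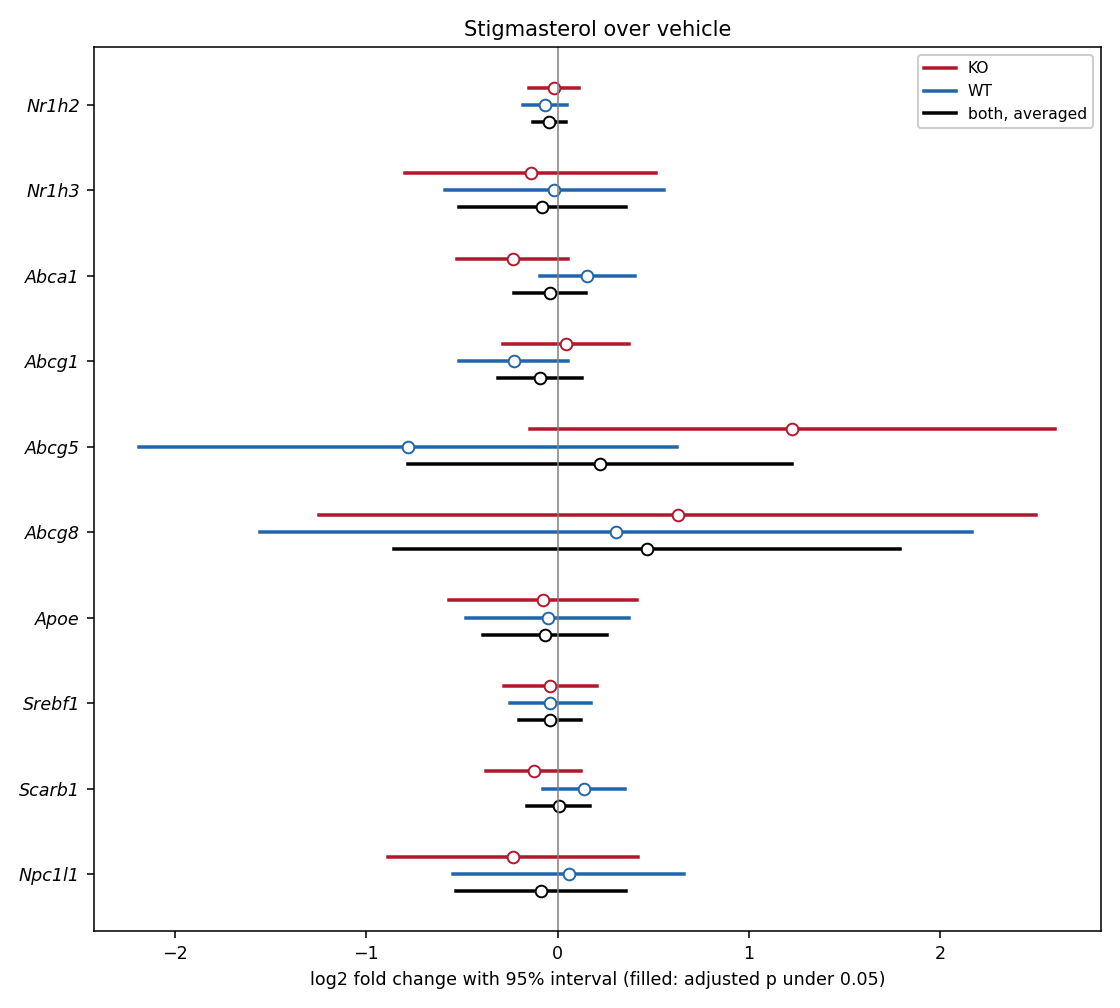
Log2 fold change of stigmasterol over vehicle for each gene with its 95% interval, in KO (red), in WT (blue) and averaged over both genotypes (black), where a filled point would mark an adjusted p under 0.05. All 30 intervals include 0 and no point is filled, and the intervals of Abcg5 and Abcg8 are the widest.

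The wider pathway lists gave the same count. Of 20 other LXR targets (among them Mylip, Lpcat3, Scd1, Fasn and Pltp), 13 LXR partners and coregulators, 10 oxysterol enzymes, 16 genes of the SREBP2 branch, 19 genes of sterol uptake and storage and 14 other ABCA and ABCG transporters, 0 were called under stigmasterol in KO, WT or both averaged. The same held for 9 tested HDL genes of 13 listed. The median log2 fold change of the other LXR targets was 0.016 in KO and -0.02 in WT, against 0.005 over all tested genes in each. The SREBP2 branch, which makes cholesterol and falls when sterol sensing is satisfied, had 0 of 16 positive values in KO, with a median of -0.115. In the same comparison macrophage markers (0 of 10 positive, median -0.25), Leydig markers (0 of 7, -0.301) and the LXR partners (1 of 13, -0.052) were also mostly negative, and their part was not tested. In WT it had 7 of 16 positive values and a median of -0.008, and the difference between the genotypes was called for 0 of the 16 genes. The authors' deposited table likewise gives adjusted p-values of at least 0.93 for all 10 members under stigmasterol in both genotypes.

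BPA was compared with vehicle in the same way and called 0 of the 10 members in KO and 0 in WT, where 0.0148% and 0% of all genes were called. At an unadjusted edgeR p under 0.05, 0 members passed in either genotype, while 4.31% of all genes did in KO and 18.8% in WT. DESeq2 called 0 members too, although in WT it called many more genes than edgeR did, as counted in the closing sections. The authors' unadjusted p-values, whose test is not stated, were 0.02 for Abcg8 in WT (adjusted 0.24) and 0.04 for Npc1l1 in KO. In edgeR Abcg8 had a log2 fold change of 1.66 ± 0.81 in WT (adjusted p = 0.278). Its highest value there was that of T61, the library with Alb at 577.9 CPM. Npc1l1 was at 2.56, 1.14 and 0.787 CPM in KO BPA animals T25, T83 and T117, against 2.89, 1.87 and 2.18 CPM in KO vehicle animals. It was at 1.54, 1.24, 1.13 and 1.07 CPM in the WT animals given BPA (T60, T75, T61, T74), against 1.053, 0.902, 0.916 and 0.825 CPM in WT vehicle animals. The WT BPA animals all lay above the WT vehicle animals, as 8.1% of genes did in one direction or the other, and the KO groups overlapped. The log2 fold change of BPA over vehicle was -0.63 ± 0.32 in KO and 0.43 ± 0.28 in WT, and their difference of -1.06 ± 0.43 was not called (unadjusted p = 0.023, under 0.05 in 8.83% of all genes, edgeR adjusted p = 0.536). For that difference 0 members and 0.0148% of all genes were called.

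The genotypes were compared to ask how the loss of FXRα bears on LXR genes, and here 2 of the 10 members were called when KO was set against WT over the 3 treatments. Scarb1 fell and Npc1l1 rose, while both receptors, the 4 ABC transporters, Apoe and Srebf1 were not called. In that comparison edgeR called 13.9% of all genes (7.07% lower and 6.85% higher), so 2 of 10 is near the background. Within treatments 2 members were called under stigmasterol (7.21% of all genes), 0 under BPA (0.859%) and 1 under vehicle (2.92%). Under BPA 2 members had an unadjusted p under 0.05, as did 8.16% of all genes. DESeq2 called 0 members there, although it called more genes than edgeR did, as counted in the closing sections.

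Scarb1 (ENSMUSG00000037936, chromosome 5, 125277087 to 125341094) encodes SR-BI, which takes cholesteryl esters from HDL and which Sertoli cells also use to recognise dying germ cells. It was at 196.4, 215.2 and 204.4 CPM in KO stigmasterol animals, against 272.0, 264.5, 298.0 and 332.7 CPM in WT stigmasterol animals. It was at 190.7, 162.8 and 220.7 CPM in KO BPA animals, against 221.5, 248.3, 254.7 and 250.2 CPM in WT BPA animals. Under vehicle it was at 236.6, 206.5 and 229.4 CPM in KO animals, against 219.3, 263.5, 264.3 and 314.8 CPM in WT animals. The KO animals lay wholly below the WT animals under stigmasterol and under BPA, where 17% and 10.4% of all genes were separated in either direction, and the vehicle groups overlapped.

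Scarb1 averaged 207 ± 22.3 CPM in KO testes (SD, n = 9) and 267 ± 34.0 CPM in WT testes (SD, n = 12). The log2 fold change was -0.37 ± 0.06 (SE, edgeR adjusted p = 0.000968), a fold of 0.776, and it was called in each of the 21 fits that left out 1 library. It was -0.51 ± 0.11 under stigmasterol (adjusted p = 0.0112), -0.35 ± 0.11 under BPA (0.251) and -0.24 ± 0.11 under vehicle (0.221). The genotype effect under stigmasterol differed from that under vehicle by -0.26 ± 0.16, which was not called (adjusted p = 0.651). Without the 9 Cdh16 libraries, which leaves 3 KO and 9 WT animals, the averaged value was -0.38 with an adjusted p of 0.107, and that under stigmasterol -0.45 (0.397). Those 3 KO animals were at 190.7 to 215.2 CPM and the 9 WT animals at 219.3 to 332.7 CPM, a separation that 6.25% of genes showed in either direction.

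Averaged over the treatments, Sertoli markers were lower in KO, as Scarb1 was. Their summed level was 3580 to 4469 CPM in KO and 3932 to 6419 CPM in WT, and 6 of 9 were called lower in KO (Sox9, Amh, Wt1, Dhh, Fshr and Rhox8). By treatment, their median log2 fold change was -0.475 under vehicle (3 called lower), -0.144 under BPA (0 called) and -0.327 under stigmasterol (0 called). Scarb1 stood at -0.24 under vehicle, -0.35 under BPA and -0.51 under stigmasterol. Its genotype effect under BPA or stigmasterol did not differ from that under vehicle by a called amount, so the order of these values is a description only. Leydig markers summed to 304 to 587 CPM in KO and 290 to 635 CPM in WT, and 0 of 7 were called. Under stigmasterol, where Scarb1 was called, they summed to 304 to 443 CPM in KO and 357 to 619 CPM in WT, and 0 of 7 had a positive log2 fold change (median -0.42). Under BPA 6 of 7 were positive (median 0.496). In whole tissue, fewer cells of a type and less RNA per cell cannot be told apart, and the part of either in the Scarb1 value was not tested. Across the 21 libraries the genes with log2 levels most like Scarb1 were Lgr4 (Pearson r = 0.924), Hk2 (0.915) and Rad23b (0.895) of 13828 compared, a description over libraries that share genotype and treatment groups.

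Npc1l1 (ENSMUSG00000020447, chromosome 11, 6211013 to 6230143), the intestinal importer of cholesterol and plant sterols, was scarce in the testis, with 32 to 147 reads in KO libraries and 31 to 79 in WT libraries. It was at 1.498, 1.876 and 2.514 CPM in KO stigmasterol animals, against 0.750, 1.17, 0.909 and 1.03 CPM in WT stigmasterol animals. The vehicle and BPA values are those given above. The KO animals lay wholly above the WT animals under stigmasterol and under vehicle (17% and 16.3% of genes were separated in either direction), and under BPA the 3 KO animals spread around the 4 WT animals.

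Npc1l1 averaged 1.92 ± 0.693 CPM in KO testes (SD, n = 9) and 1.045 ± 0.214 CPM in WT testes (SD, n = 12), with a log2 fold change of 0.87 ± 0.17 (SE, edgeR adjusted p = 0.00256). It was 1.03 ± 0.30 under stigmasterol (adjusted p = 0.0425), 0.26 ± 0.30 under BPA (0.968) and 1.32 ± 0.30 under vehicle (0.0218). The averaged call was kept without any single library (adjusted p 0.000507 to 0.00764). Markers of the epididymis were also higher in KO. Their summed level was 100 to 485 CPM in KO and 52.6 to 132 CPM in WT, and 6 of 8 tested were called higher. Epcam alone was at 72.17 to 180.8 CPM in KO and 40.15 to 76.66 CPM in WT. Among KO animals the order of these sums and of Npc1l1 was the same under vehicle and not under the other treatments. Under vehicle the sums were 218.3 CPM in T1, 143.9 in T110 and 100.5 in T90, with Npc1l1 at 2.89, 2.18 and 1.87 CPM. Under BPA they were 164 CPM in T117, 110.3 in T83 and 100 in T25, with Npc1l1 at 0.787, 1.14 and 2.56 CPM. Under stigmasterol they were 485 CPM in T93, 258.9 in T10 and 101.1 in T15, with Npc1l1 at 2.514, 1.498 and 1.876 CPM. Without the 9 Cdh16 libraries Npc1l1 lay at 1.87 to 2.56 CPM in 3 KO animals and 0.750 to 1.17 CPM in 9 WT animals with no overlap, and it was still called (1.04, adjusted p = 0.0121). Without those libraries the epididymal markers still summed to at least 100 CPM in these KO animals and at most 77.8 CPM in these WT animals. Epcam, at 72.17 CPM or more in every KO library, made up most of the KO sums. Cdh16, by which the libraries were picked, overlapped, at 0.411 to 1.16 CPM in these KO and 0.1002 to 2.62 CPM in these WT animals. The part of such tissue in the Npc1l1 value was not tested. The calls of Npc1l1 within treatments were less firm. Under vehicle the call was lost without WT T81 (adjusted p = 0.0742), KO T1 (0.112) or KO T110 (0.0544), and under stigmasterol without WT T78 (0.0928), T118 (0.101) or T119 (0.0827) or KO T15 (0.0751) or T93 (0.207). Both were also lost without the Cdh16 libraries, where 1 KO animal per treatment remains and the log2 fold changes were 0.95 under vehicle (0.513) and 0.95 under stigmasterol (0.261). The call under stigmasterol was also lost with no filter (0.0583) or in its 2 groups alone (0.0749), both at 1.03.

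**Figure D3:**
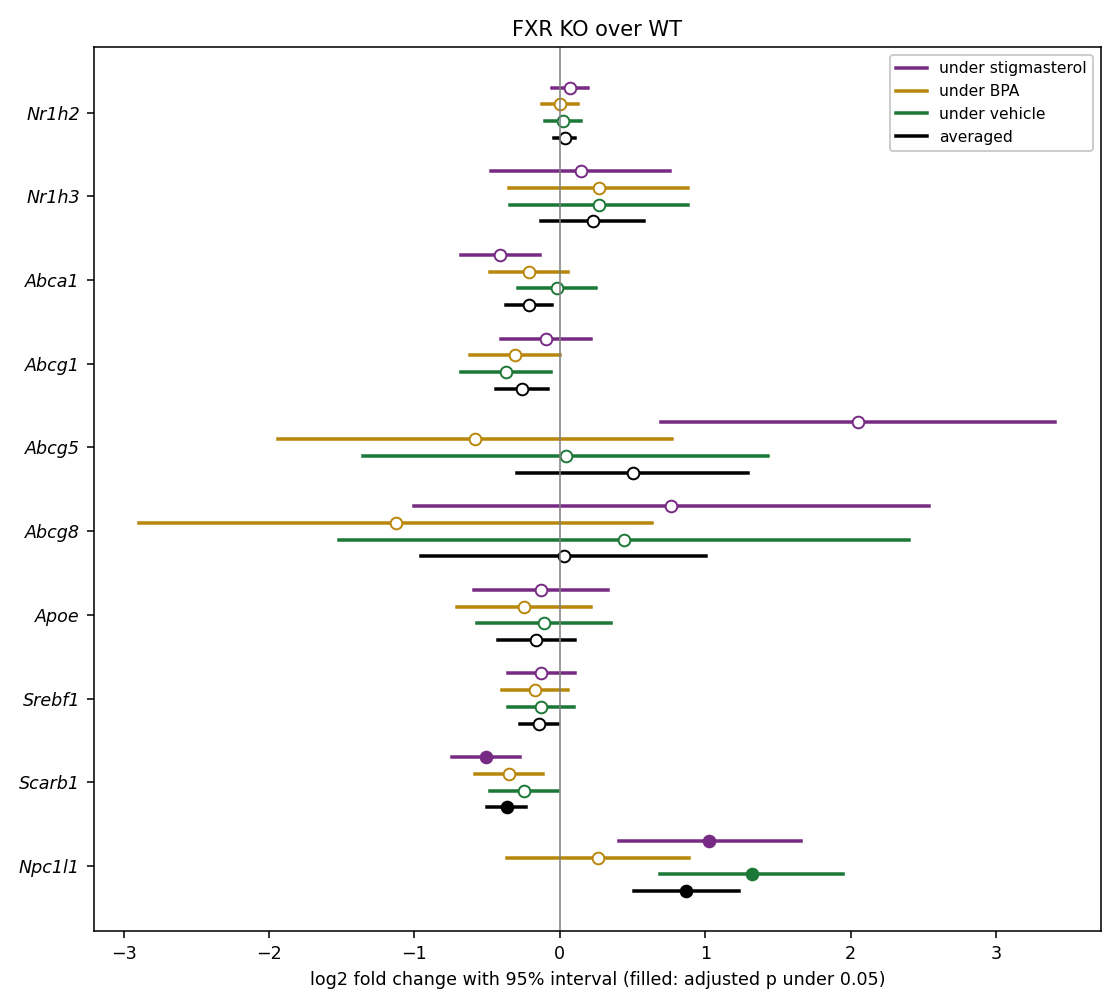
Log2 fold change of KO over WT for each gene with its 95% interval, under stigmasterol, BPA and vehicle and averaged over the 3, where filled points mark an adjusted p under 0.05. Filled points are those of Scarb1 (averaged -0.37) and Npc1l1 (averaged 0.87), and the Abca1 and Abcg1 averages lie below 0 without being filled.

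The exporters Abca1 and Abcg1 and the regulator Srebf1 were lower on average in KO than in WT but lay outside the threshold. Abca1 averaged 275.1 ± 33.7 CPM in KO and 318.4 ± 40.8 CPM in WT (SD, n = 9 and 12), with a log2 fold change of -0.21 ± 0.07 (edgeR adjusted p = 0.0662). Abcg1 averaged 24.0 ± 2.24 CPM in KO and 28.8 ± 4.69 CPM in WT (-0.26 ± 0.09, adjusted p = 0.0503), and Srebf1 133.0 ± 11.9 CPM in KO and 146.8 ± 14.1 CPM in WT (-0.14 ± 0.06, adjusted p = 0.147). All 3 had an unadjusted edgeR p under 0.05, as did 27.8% of all genes. The genotype ranges overlapped for all 3. Under stigmasterol Abca1 was at 248.2 to 259.2 CPM in KO and 316.6 to 357.3 CPM in WT with no overlap (-0.41 ± 0.13, edgeR adjusted p = 0.0621), and under vehicle the difference was -0.02 ± 0.13. Under vehicle Abcg1 was at 21.9 to 25.8 CPM in KO and 27.0 to 39.6 CPM in WT, also with no overlap (-0.37 ± 0.15, adjusted p = 0.164). Such a separation, in either direction, was shown by 17% of all genes under stigmasterol and 16.3% under vehicle. The shifts in Sertoli and epididymal markers given above stand beside these values too, and their part was not tested.

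The calls of these genes hang on single choices. DESeq2 called Abca1 (adjusted p = 0.0397) and Abcg1 (0.0233) on average, and edgeR with RLE factors called Abcg1 (0.0442). Among the 21 fits that left out 1 library, edgeR called Abca1 without WT T79 (0.0329) or T60 (0.0446) or KO T110 (0.0423) or T117 (0.0248). It called Abcg1 in 9 of them, without WT T66, T71, T79, T74, T98 or T118 or KO T90, T83 or T15 (adjusted p 0.0336 to 0.0495). Under stigmasterol Abca1 was called by DESeq2 (0.0258) and in its 2 groups alone (0.0352). Both stayed outside the threshold without the 9 Cdh16 libraries, with an adjusted p of 0.183 for Abca1 and 0.544 for Abcg1. Their levels were most like those of Tnik (r = 0.897) for Abca1 and Kcnj3 (r = 0.882) for Abcg1.

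Neither receptor gene was called between the genotypes. Nr1h2 was at 108.3 to 125.5 CPM over all 21 libraries. It averaged 118.4 ± 5.87 CPM in KO and 115.7 ± 5.17 CPM in WT, with a log2 fold change of 0.03 ± 0.03 and a 95% interval of -0.04 to 0.10. Under stigmasterol it was at 113.3 to 120.7 CPM in KO and 110.9 to 113.2 CPM in WT with no overlap (0.07 ± 0.06, edgeR adjusted p = 0.53), which makes 4 of the 10 members separated there beside 17% of all genes. Nr1h3 averaged 3.56 ± 0.815 CPM in KO and 3.05 ± 0.947 CPM in WT (0.23 ± 0.17, adjusted p = 0.418). Nr1h3 varied among animals of 1 group, at 5.34, 3.35 and 3.07 CPM in KO vehicle animals and 5.003, 3.31, 2.26 and 2.45 CPM in WT vehicle animals. Macrophages carry much LXRα, and the macrophage markers summed to 110 to 182 CPM in KO and 118.6 to 181 CPM in WT. In the same order of animals they summed to 149.8, 139.2 and 170.4 CPM (KO vehicle) and 181.0, 131.5, 130.2 and 163.6 CPM (WT vehicle). Germ cell markers summed there to 2274, 1961 and 1790 CPM (KO) and 2020, 1812, 1577 and 1060 CPM (WT). The part of either cell type in Nr1h3 was not tested. Apoe averaged 126.5 ± 19.5 CPM in KO and 141.8 ± 35.9 CPM in WT (-0.16 ± 0.13, adjusted p = 0.442), and its highest value, 237.2 CPM, was that of WT BPA animal T61.

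The plant sterol pump was barely transcribed in the testis. Abcg5 (ENSMUSG00000040505, chromosome 17, 84658234 to 84683011) had 5 to 58 reads per KO library and 3 to 37 per WT library. It was at 0.408, 0.154 and 0.992 CPM in KO stigmasterol animals, 0.206, 0.112 and 0.394 CPM in KO BPA animals and 0.241, 0.226 and 0.203 CPM in KO vehicle animals. It was at 0.203, 0.0649, 0.0909 and 0.147 CPM in WT stigmasterol animals, 0.196, 0.286, 0.803 and 0.132 CPM in WT BPA animals and 0.198, 0.150, 0.134 and 0.399 CPM in WT vehicle animals. KO stigmasterol animal T93 and WT BPA animal T61 stood far above the rest, and the ranges of KO and WT overlapped under each treatment.

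Abcg8 (ENSMUSG00000024254, chromosome 17, 84676302 to 84700333) had 4 to 28 reads per KO library and 0 to 41 per WT library. It was at 0.0908, 0.0883 and 0.479 CPM in KO stigmasterol animals, 0.114, 0.0894 and 0.271 CPM in KO BPA animals and 0.1004, 0.145 and 0.203 CPM in KO vehicle animals. It was at 0.243, 0.108, 0.109 and 0.0589 CPM in WT stigmasterol animals, 0.0586, 0.286, 0.890 and 0.153 CPM in WT BPA animals, and 0, 0.0752, 0.224 and 0.133 CPM in WT vehicle animals. The 0 in WT vehicle animal T66 allows up to 0.066 CPM, for counting error only. The highest values came from T61 and T93, the libraries with the highest Abcg5.

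These libraries also carried transcripts of other tissues. WT BPA animal T61 had Alb at 577.9 CPM and a summed level of 10 liver markers of 1071 CPM, and liver is a main site of ABCG5 and ABCG8. KO stigmasterol animal T93 had Cdh16 at 203.3 CPM and a summed epididymal level of 485 CPM, the highest of the 21, with liver markers at 11.9 CPM. The part of such tissue in the Abcg5 and Abcg8 values was not tested. The log2 fold change of Abcg5, KO over WT under stigmasterol, was 2.05 ± 0.65 (edgeR adjusted p = 0.061). It was called by DESeq2 (0.0399), without KO T15 (0.025) and without the 3 Alb libraries (0.049), and it was 0.29 (adjusted p = 0.959) without the 9 Cdh16 libraries. Abcg5 and Abcg8 share 82 exon bases on opposite strands, so that reads there cannot be told apart with an unstranded kit.

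**Figure D4:**
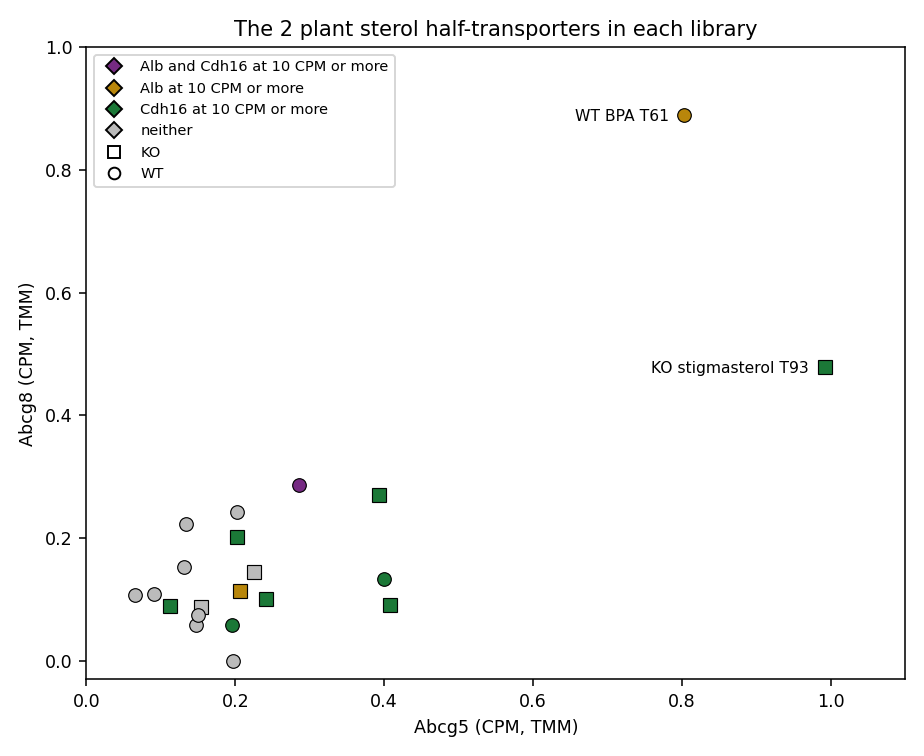
Abcg8 against Abcg5 (CPM after TMM scaling) in each of the 21 libraries, squares for KO and circles for WT, coloured by whether Alb or Cdh16 reached 10 CPM. WT BPA animal T61 (0.803 and 0.890 CPM for Abcg5 and Abcg8) and KO stigmasterol animal T93 (0.992 and 0.479 CPM) stand apart from the other 19.

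The pathway lists around the 10 members are given for KO against WT over the 3 treatments beside the 13.9% of all genes called there, and no difference between lists was tested. The SREBP2 branch had 0 of 16 genes called higher and 9 lower, with a median log2 fold change of -0.194, against 0.013 over all tested genes. Hmgcs1, which makes the precursor of mevalonate, was at 278.0 ± 28.4 CPM in KO and 393.6 ± 71.3 CPM in WT (SD, n = 9 and 12), a log2 fold change of -0.49 ± 0.08 (edgeR adjusted p = 0.000508). Fdft1 (-0.24) and Fdps (-0.24) fell as well, and Srebf2, which encodes SREBP2 itself, was among the 9 (-0.20, adjusted p = 0.0119). Of the 10 oxysterol enzymes 0 were called higher and 3 lower, among them Ebp (-0.34), a sterol isomerase, and Cyp39a1 (-0.31), an oxysterol hydroxylase.

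Of the 20 other LXR targets 1 was called higher and 2 lower, with a median of -0.036. Scd2, a fatty acid desaturase, was at 930.8 ± 61.6 CPM in KO and 1186 ± 187 CPM in WT (-0.35 ± 0.07, edgeR adjusted p = 0.00262). Apoc2, the cofactor of lipoprotein lipase, was at 0 to 0.114 CPM in KO and 0.177 to 1.74 CPM in WT (-4.02 ± 0.53, adjusted p = 4.79e-05), a fitted value that depends on the prior count because KO libraries reach 0. Its cluster neighbours Apoe, Apoc1 (0.17, adjusted p = 0.792) and Apoc4 (0.03, adjusted p = 0.974) were not called. Arl4c, a small GTPase induced by LXR in cell cultures, was called higher (0.72, adjusted p = 0.0369), but not without WT T71, T79, T61, T74, T78 or T118 or KO T1, T110, T117 or T93 (adjusted p up to 0.11). It was also lost in limma-voom (0.0974), without the 9 Cdh16 libraries (0.64) and without the 3 Alb libraries (0.0667).

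Of the 13 partners and coregulators 1 was called higher and 1 lower. Med1, the Mediator subunit that nuclear receptors contact, was at 159.2 to 179.6 CPM in KO and 127.1 to 150.0 CPM in WT, with no overlap, as 1.05% of all genes showed. Its log2 fold change was 0.29 ± 0.03 (edgeR adjusted p = 1.01e-05), and it was called in every alternative tried, up to an adjusted p of 0.0474 without the 9 Cdh16 libraries. Ncoa2, a coactivator of nuclear receptors, was at 281.5 ± 23.7 CPM in KO and 330.3 ± 32.9 CPM in WT (-0.23 ± 0.05, adjusted p = 0.0064).

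Among 14 other ABCA and ABCG transporters 2 were called higher, Abca2 (0.33, edgeR adjusted p = 0.00409) and Abca3 (0.31, 0.00707), a lipid transporter of brain and lung in each case, and Abca12, a skin lipid transporter, was called lower (-0.75, 0.00246). Of 19 genes of sterol uptake, lysosomal exit and esterification 0 were called higher and 2 lower, the receptor gene Lrp8 (-0.72, 0.0115) and Soat1 (-0.42, 0.0259), which esterifies cholesterol for storage. Of the 9 tested HDL genes Pdzk1, whose protein holds SR-BI at the membrane of liver cells, was called higher (1.01, 0.0324), and 0 were called lower. Without the 9 Cdh16 libraries the list genes picked by the naming rule were no longer called, with Med1 as the exception. That fit keeps 1 KO animal per treatment, and the part of the smaller number of animals in these losses was not tested. Soat1 was also lost without KO T110, T25, T10 or T15 (adjusted p up to 0.0571), and Pdzk1 without WT T81, T61, T78, T118 or T119 or KO T1, T25, T83 or T10 (up to 0.099). Cyp39a1 was lost in 15 of the 21 fits that left out 1 library, all but those without WT T66, T71, T98 or T118 or KO T83 or T15 (up to 0.0804). Without the 3 Alb libraries Soat1 (0.0928), Pdzk1 (0.157), Cyp39a1 (0.133) and Ebp (0.0661) were lost too. In the same comparison 6 of 8 epididymal and 5 of 6 fat markers were called higher and 6 of 9 Sertoli markers lower, and their part in these lists was not tested.

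**Figure D5:**
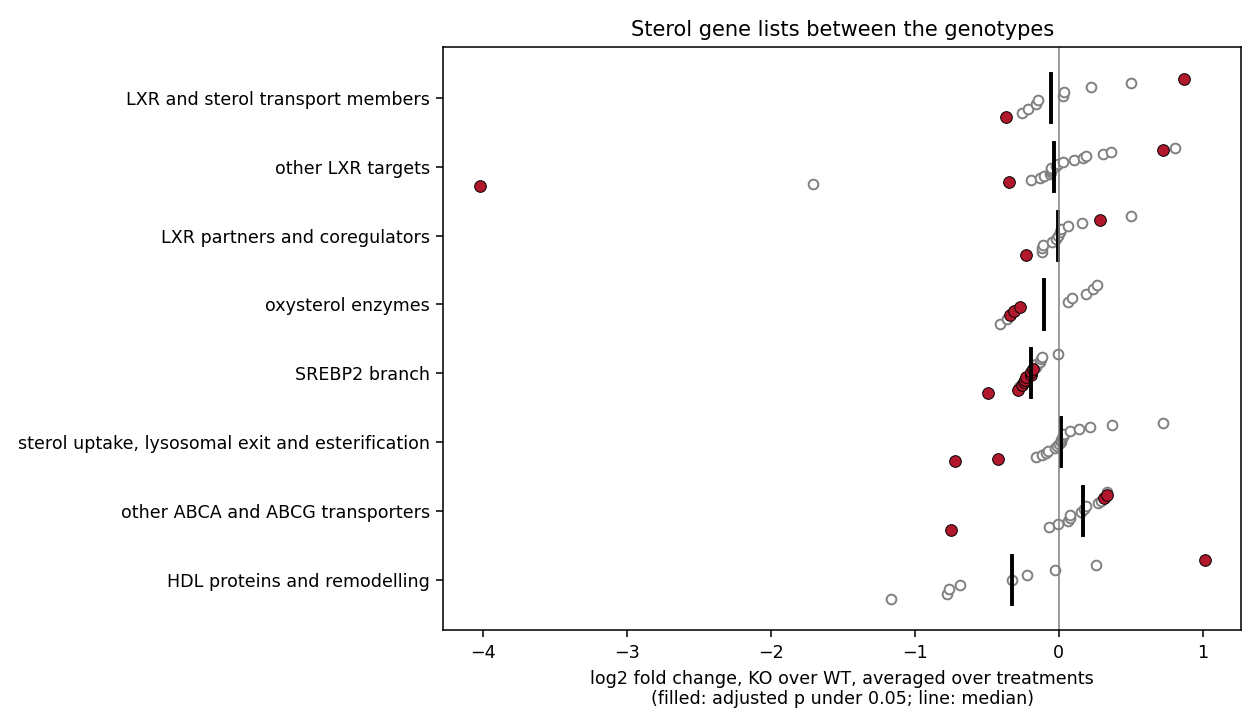
Log2 fold change of KO over WT, averaged over treatments, for each gene of the 10 members and of the 7 pathway lists, with filled points for an adjusted p under 0.05 and a line at each list's median. The SREBP2 branch has 0 of 16 points above 0 and 9 of 16 filled, and Apoc2 (-4.02) lies farthest left.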

How the data were processed

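The labels name a TruSeq RNA library kit, which does not mark the strand. The deposited table holds raw read counts per gene and animal, whole numbers on which each test was run. The authors' normalized signal is that count divided by 1 size factor per library, and a further deposited signal divides it by gene length in kb. The authors' log2 fold changes and p-values for treatment against vehicle are rounded to 2 decimals, and their test is not stated. Per the submitters' processing notes, the tools were Bowtie, Bowtie2 2.1.0, TopHat2 2.0.10 and CASAVA 1.8.2 with the mm10 build, while the read counter and annotation release are not named.

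All 21 libraries entered 1 fit in edgeR 4.0.16 (R 4.3.3), with 1 mean per group, TMM scaling, filterByExpr (minimum count 10, minimum total 15) and a quasi-likelihood test. Adjusted p-values are two-sided and Benjamini-Hochberg adjusted over the 20254 genes tested, and a gene is called at an adjusted p under 0.05. CPM are after TMM scaling, and intervals are 95%. Common biological variation was 19.2%. DESeq2 1.42.0, limma-voom (limma 3.58.1), RLE factors, no filter, fits on the compared groups alone and fits without 1 library were alternatives. Fits without libraries with Cdh16 or Alb at 10 CPM or more were chosen after the data were seen, and leaving out 9 Cdh16 libraries leaves 1 KO animal per treatment, assumed to vary like the WT animals. The fits were tested on simulated data. Each animal is a replicate, and litters are not given, so p-values measure the spread between these animals. The members and lists were chosen with earlier results of these data known. The text names all 10 members, up to 4 called genes per pathway list with the smallest p, and the genes most like a member, except that some are not reported here; Srebf2, Apoc1 and Apoc4 were named after their values were seen. Promoters came from RefSeq on GRCm38.p6. Figures were drawn with matplotlib 3.10.9.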

Additional observations from a re-analysis of the deposited data

Results flagged for a closer look

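Abcg1 in WT vehicle animal T81, at 39.61 CPM, lay far from the other 3 WT vehicle animals, whose values were 27.0, 27.1 and 28.5 CPM. The gap, divided by the range of the group, passed Dixon's 95% critical value for 4 samples. Of 30 groups of 4 tested over the 10 genes 1 was marked in this way, and chance marks about 1 in 20 groups. The same library had the highest Abca1 (380.9 CPM), Srebf1 (171.0 CPM) and Abcg5 (0.399 CPM) of the WT vehicle group, and Cdh16 at 17.6 CPM.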

How the results depend on the processing

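For stigmasterol and BPA against vehicle 0 members were called in every alternative. Under vehicle, the members called between KO and WT changed to 0 without the 9 Cdh16 libraries, and ranged from 0 to 1 when 1 library was left out. Under stigmasterol they were 1 with no filter on low counts, 4 with DESeq2, 3 without the Alb libraries and 0 without the Cdh16 libraries, and 1 to 2 without single libraries. Averaged over treatments they were 4 with DESeq2, 3 with RLE factors and 1 without the Cdh16 libraries, and 2 to 4 without single libraries. Where the count over all genes in a setting is not given below, as for DESeq2 under stigmasterol and averaged, these member counts have no background beside them. Of 1870 recomputed member values 35 changed their call and 0 called values changed sign, while 200 uncalled values changed sign. Fewer samples and 1 KO animal per treatment remain without the Cdh16 libraries; the cause of the other changes was not tested. Over all genes the calls between KO and WT were 592 under vehicle (1397 with DESeq2, 185 in the compared groups alone, 56 without the Cdh16 libraries), 174 under BPA (297, 110 and 31, and 72 without the Alb libraries), 1461 under stigmasterol (327 in the compared groups alone, 85 without the Cdh16 libraries) and 2820 averaged (257 and 1530 without the Cdh16 and Alb libraries). DESeq2 called 92 genes for stigmasterol in WT, where edgeR called 1, and 1018 for BPA in WT, where edgeR called 0. Depth limits Abcg5 and Abcg8 most. No paired analysis was possible because the groups share no animal numbers.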

Other observations

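Genes whose log2 levels followed a member most closely over the 21 libraries are given as a description, among the genes with a mean of at least 1 CPM and with no p, since the libraries share genotype and treatment groups. Beside Tnik, Abca1 was followed by Kdm7a and Rnf152, and beside Kcnj3, Abcg1 by Smoc1 and Cntnap1. Nr1h3 was most like Pbld1 (Pearson r = 0.936), then Sec11c and Evi5l, and Nr1h2 was most like Abcb8 (0.78), then Adck3 and Trim68. Srebf1 was most like Dctn1 (0.883), then Gata6 and Mmab, and Apoe most like Sepp1 (0.816), which encodes the selenium carrier of plasma, then Vtn and Fggy. Npc1l1 was most like Sptbn5 (0.853), then Rnf39 and Itgb1bp1. Abcg5 was most like Rgn (0.877), then Ccdc148 and Plvap, and Abcg8 most like Hsd11b1 (0.8), the enzyme that regenerates cortisol's rodent counterpart corticosterone, then Zfp90 and Lrch1.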
